A study of Homo sapiens with 44 samples.

Results

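Ccd-18Co cells, a fibroblast line from human colon, were stimulated with IL-13 or with TGF-β1, and the 4 libraries titled for IL-13 were set directly against the 4 titled for TGF-β1, gene by gene. These 8 libraries are part of a bulk RNA-seq series of 44 libraries in 11 groups of 4, comprising unstimulated cells and cells given 1 of 10 cytokines. Cells were kept in serum-free medium for 72 h, and IL-13 or TGF-β1 was then added at 10 ng/ml for 24 h. The 4 unstimulated libraries went through the same starvation without a cytokine and serve below as the reference that tells which cytokine moved a gene. All groups come from a single commercial line, so they hold neither donors nor other cell types, and no source says that replicates were separate cultures on separate days. The p-values therefore measure the spread between libraries within the 11 groups, which may be technical. In bulk RNA, fewer cells of a kind and less RNA per cell cannot be told apart.

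IL-13 is made by T helper 2 cells and innate lymphoid cells, and it signals through a receptor of IL13RA1 and IL4R that activates the transcription factor STAT6. TGF-β1 binds TGFBR2 and TGFBR1, which phosphorylate SMAD2 and SMAD3, and these enter the nucleus with SMAD4. Both cytokines are known in the gut for acting on fibroblasts, where they change the genes of matrix, of its breakdown and of leukocyte recruitment.

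The 8 libraries held 825001 to 1786182 estimated counts, with 1219080 to 1786182 for IL-13 and 825001 to 1470192 for TGF-β1, and the unstimulated libraries held 1365019 to 1725354. All 9 fibroblast markers checked passed the filter on low counts, and their summed level was 40951 to 52357 counts scaled to library size (CPM) with IL-13 and 25778 to 30473 CPM with TGF-β1. Of the markers of other cell types, 0 of 6 endothelial, 1 of 7 epithelial, 1 of 7 immune and 2 of 6 glial and neuronal genes passed that filter. VWF, CDH5 and KDR of endothelial cells, KRT20, CDX2 and CLDN7 of epithelial cells, CD3E, CD79A and LYZ of immune cells, SOX10 and ELAVL4 of glia and neurons and the muscle gene DES had 0 counts in all 12 libraries, while other members of these lists had counts. Over the 12 libraries the endothelial sum was 0 to 5.83 CPM and the epithelial sum 2.2 to 18.2 CPM. The immune sum was 0 to 4.62 CPM with IL-13, 3.9 to 16.0 CPM with TGF-β1 and 0 to 9.3 CPM in unstimulated cells. The glial and neuronal sum was 184 to 250.2 CPM with IL-13, 163 to 284 CPM with TGF-β1 and 113 to 165 CPM in unstimulated cells. Of the 6 smooth muscle markers, which include DES, 5 passed the filter. The smooth muscle sum was 622 to 941 CPM with IL-13, 375 to 1110 CPM with TGF-β1 and 362 to 1082 CPM in unstimulated cells. Of the 5 pericyte markers, 2 passed the filter. Summed pericyte markers ran from 65.7 to 133 CPM with IL-13, from 11.7 to 32.3 CPM with TGF-β1 and from 19.1 to 40.1 CPM in unstimulated cells. Most of it was RGS5 (log2 difference 2.75 ± 0.43, adjusted p = 6.8e-06), and the part of these markers in the results was not tested. On the first principal component of the 500 most variable genes (41.9% of variance), IL-13 libraries lay between -25.9 and -20.2, unstimulated libraries between -5.28 and 3.36, and TGF-β1 libraries between 19.4 and 25.8.

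The direct comparison asked which genes a single fibroblast line expressed at different levels under the 2 cytokines. Of 9513 genes tested, 198 were called higher with IL-13 and 261 higher with TGF-β1, which is 2.08% and 2.74% of all tested genes and 4.82% together. A call required a log2 difference beyond 1.5 in either direction and, from edgeR's quasi-likelihood test, an adjusted p below 0.05. Without the limit on size, 608 genes (6.39%) were higher with IL-13 and 576 (6.05%) higher with TGF-β1, 12.4% in all. Among called genes whose 2 groups did not overlap and which averaged at least 10 CPM over the 8 libraries, the largest differences were those of CCL26, MEST and CCL11 on the IL-13 side and of NOX4, AREG and MMP10 on the TGF-β1 side. The median difference over all tested genes was -0.033 on the log2 scale. All log2 differences below are IL-13 minus TGF-β1, unless another pair is named. Their standard errors come from the fit to all 44 libraries, in which the 11 groups share 1 estimate of the spread per gene.

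**Figure D1:**
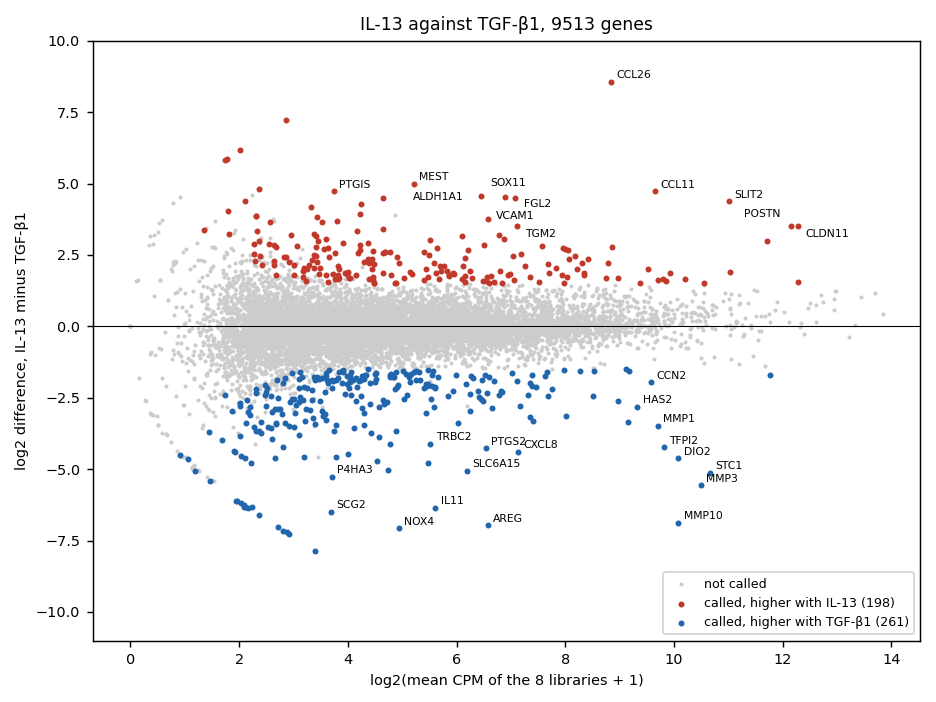
Log2 difference between IL-13 and TGF-β1 (vertical axis) against the mean level of the 8 libraries as log2(CPM + 1) (horizontal axis), 1 point per tested gene. Red points are the 198 genes called higher with IL-13 and blue points the 261 called higher with TGF-β1, with CCL26 at 8.56 the highest labelled gene and NOX4 at -7.07 the lowest.

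Each cytokine alone differed from unstimulated cells at fewer genes than the 2 differed from each other. By the same limits IL-13 raised 26 genes (0.273%) and lowered 114 (1.2%), and TGF-β1 raised 61 (0.641%) and lowered 101 (1.06%), or 1.47% and 1.7% of genes in both directions. Without the size limit, IL-13 raised 146 genes (1.53%) and lowered 228 (2.4%), 3.93% in all, and TGF-β1 raised 248 (2.61%) and lowered 293 (3.08%), 5.69% in all. Of the 459 genes called between the cytokines, 285 (62.1%) were called against unstimulated cells under neither, and 216 (47.1%) did not reach an adjusted p under 0.05 under either. The unstimulated mean lay between the 2 cytokine means for 406 of the 459 (88.5%), and for 41.6% of all tested genes. Among the 198 genes higher with IL-13, at an adjusted p under 0.05 without the size limit, 19 were raised by IL-13 only, 74 were lowered by TGF-β1 only, and 17 were both raised by IL-13 and lowered by TGF-β1. Among the 261 higher with TGF-β1, the corresponding numbers were 50 raised by TGF-β1 only, 56 lowered by IL-13 only, and 24 both raised by TGF-β1 and lowered by IL-13. These comparisons share the 4 unstimulated libraries.

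Values of the 4 IL-13 and the 4 TGF-β1 libraries did not overlap for 183 of the genes called higher with IL-13 and 207 of those called higher with TGF-β1. Over all tested genes, the IL-13 libraries lay wholly above in 7.45% and the TGF-β1 libraries wholly above in 7.12%. Against the whole series, IL-13 had the highest mean of the 11 groups in 122 of the 198 genes, and TGF-β1 the highest in 114 of the 261. Over all tested genes, IL-13 was highest in 11.4% and TGF-β1 in 9.5%. IL-13 had the lowest mean in 186 of the 261 genes higher with TGF-β1, and TGF-β1 the lowest in 106 of the 198 genes higher with IL-13. Over all tested genes, IL-13 was lowest in 13.2% and TGF-β1 in 10.0%. These genes were selected for a difference between the 2 groups, which favours extreme ranks, so nothing is read from these counts.

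The eotaxins, chemokines that attract eosinophils, were much higher with IL-13, and CCL26 had the largest difference of the 15 genes on that side. CCL26 (eotaxin-3, GRCh38 chr7:75769533-75789896) stood at 587, 519.6, 1169 and 1357 CPM with IL-13 and at 2.34, 0, 1.81 and 4.4 CPM with TGF-β1. Unstimulated cells were as low, at 0.49, 3.65, 0.704 and 0 CPM, so the difference of 8.56 ± 0.58, adjusted p = 8.0e-15 came with a difference of 9.56 ± 0.61, adjusted p = 4.0e-15 between IL-13 and unstimulated cells. CCL11 (eotaxin-1, chr17:34285742-34288334) measured 1393, 1384, 1629 and 1796 CPM with IL-13 against 28.1, 52.1, 29.9 and 120.4 CPM with TGF-β1, a difference of 4.73 ± 0.34, adjusted p = 1.3e-14. All 4 IL-13 libraries exceeded the other 40 libraries of the series for both eotaxins. Without TGF-β1 replicate 4, the highest of its group for both genes, the differences were 9.16 and 5.41.

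Periostin and transglutaminase, a matrix adapter and a protein crosslinker, lay below the 15 largest differences but were among the type 2 response genes. POSTN (chr13:37562583-37598844) reached 6071, 6169, 10311 and 10767 CPM with IL-13 and 652, 722, 696 and 861 CPM with TGF-β1. It was raised by both cytokines, since unstimulated cells held 280.1, 465, 364 and 355 CPM: the rise was 4.51 ± 0.22, adjusted p = 3.7e-20 with IL-13 and 1.003 ± 0.19, adjusted p = 0.00058 with TGF-β1. The direct difference was 3.51 ± 0.21, adjusted p = 1.0e-16. TGM2 (chr20:38127385-38166578) was at 176, 159, 364 and 316 CPM with IL-13 and 17.9, 25.5, 22.7 and 23.5 CPM with TGF-β1, with unstimulated libraries between at 49, 53.9, 33.8 and 66.3 CPM (difference 3.504 ± 0.26, adjusted p = 4.0e-14). VCAM1, the adhesion molecule that binds the integrin α4β1 of leukocytes, measured 160.0, 174, 187 and 188 CPM with IL-13 and 7.02, 8.51, 11.8 and 23.5 CPM with TGF-β1 (difference 3.76 ± 0.34, adjusted p = 1.2e-11). Groups did not overlap for any of these 3 genes.

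Of 26 genes listed as type 2 response genes, 17 were tested. Of these, 7 were higher with IL-13 and 2 higher with TGF-β1, against 6.39% and 6.05% of all genes, with a median difference of 0.90. This list and those below were chosen with earlier results of these data known, so their shares are description and test nothing. Counts of every list below are to be read beside these shares of all tested genes. CCL2 and CEMIP were the others higher with IL-13, CEMIP with overlapping groups. Against unstimulated cells neither passed with IL-13 (adjusted p = 0.652 and 0.833, edgeR). Both were lowered by TGF-β1 (-1.22 ± 0.25, adjusted p = 0.0015 and -1.08 ± 0.30, adjusted p = 0.0192). TNFAIP6 and IL33 were higher with TGF-β1. IL33, an alarmin upstream of type 2 immunity, stood at 47.1, 20.8, 26.5 and 34.6 CPM with IL-13, 182, 228, 284 and 476 CPM with TGF-β1 and 117, 88.9, 172 and 176 CPM in unstimulated cells. It was lowered by IL-13 (-2.09 ± 0.34, adjusted p = 3.7e-05) and raised by TGF-β1 (1.08 ± 0.31, adjusted p = 0.0252).

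Outside that list, SLIT2, SOX11, CLDN11 and ALDH1A1 were among the 15 genes with the largest excess with IL-13. SLIT2, a secreted guidance ligand of ROBO receptors, stood at 4449.7, 5157, 2584 and 3618 CPM with IL-13, 159.9, 105, 175 and 317 CPM with TGF-β1 and 475, 1079, 1160.2 and 954 CPM in unstimulated cells. Its difference of 4.38 ± 0.42, adjusted p = 8.6e-11 split into a rise of 2.11 ± 0.38 with IL-13 and a difference of -2.27 between TGF-β1 and unstimulated cells. SOX11, a transcription factor, was even across the IL-13 libraries at 221, 232, 221 and 226 CPM and stood at 1.56, 4.25, 16.3 and 16.1 CPM with TGF-β1 (difference 4.52 ± 0.44, adjusted p = 9.3e-11). CLDN11, a tight-junction protein, was among the most abundant of these genes, at 10685, 12510.3, 6734 and 6608 CPM with IL-13 and 583, 592, 793 and 1243 CPM with TGF-β1. Unstimulated cells held 4222, 7118, 5628 and 5439 CPM, and only the fall with TGF-β1 passed the test (-2.80 ± 0.28, adjusted p = 3.4e-09; 0.71 ± 0.26, adjusted p = 0.14 with IL-13). ALDH1A1, which makes retinoic acid, followed the same order, at 199.8, 231, 87.1 and 146 CPM with IL-13 and 10.9, 7.44, 2.72 and 6.6 CPM with TGF-β1 (difference 4.55 ± 0.51, adjusted p = 5.5e-09, and -3.68 ± 0.51, adjusted p = 2.3e-06 for TGF-β1 against unstimulated).

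FGL2, a fibrinogen-like secreted and membrane protein, stood at 358, 335, 163 and 174 CPM with IL-13, 21.1, 9.57, 4.54 and 9.54 CPM with TGF-β1 and 114, 142, 85.1 and 87.4 CPM in unstimulated cells (difference 4.49 ± 0.33, adjusted p = 4.0e-14). The other genes among the 15 with the largest excess were at lower levels, below 100 CPM in every library. MEST, an imprinted gene, measured 81, 81.1, 58.3 and 60.4 CPM with IL-13 and 5.46, 2.13, 0.907 and 0 CPM with TGF-β1 (difference 4.99 ± 0.94, adjusted p = 0.00014). PTGIS, prostacyclin synthase, measured 22.6, 44, 8.08 and 21.3 CPM with IL-13 and 0.78, 0, 0 and 2.2 CPM with TGF-β1 (difference 4.72 ± 0.88, adjusted p = 0.00013). GUCY1A1, a subunit of the nitric oxide receptor, ELOVL2, a fatty acid elongase, TLCD2, SLC7A14 and the antisense transcript PGM5P4-AS1 differed by 4.29, 3.68, 3.92, 3.64 and 4.50, and the 2 groups did not overlap for any of the 15. At these levels 1 library could move the size: without TGF-β1 replicate 4 the difference was 5.98 for PTGIS, 6.47 for GUCY1A1 and 8.17 for ELOVL2, without TGF-β1 replicate 1 it was 6.15 for MEST and 4.31 for SLC7A14, and without TGF-β1 replicate 3 it was 5.64 for PGM5P4-AS1. Whether strand was used in counting is not given in the sources used here, so reads of an antisense gene and its partner may not be separated.

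**Figure D2:**
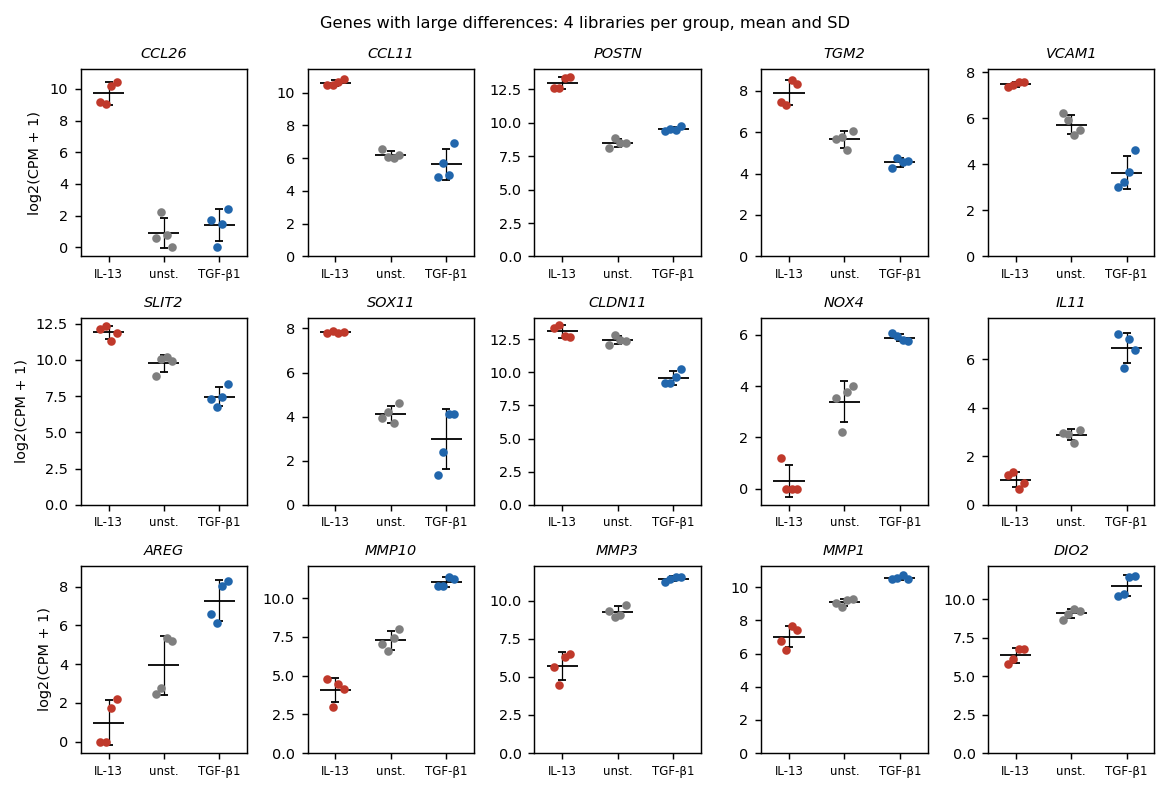
Level in each library as log2(CPM + 1) for 15 genes with large differences (8 higher with IL-13, then 7 higher with TGF-β1), with the mean (line) and SD (bar) of 4 libraries for IL-13 (red), unstimulated cells (grey) and TGF-β1 (blue). The red and blue points do not overlap in any panel, and the grey points fall wholly between them for TGM2, VCAM1, SLIT2, NOX4, IL11, AREG, MMP10, MMP3, MMP1 and DIO2.

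On the TGF-β1 side, NOX4 showed the largest difference among genes averaging at least 10 CPM. NOX4 (chr11:89324353-89498187), an NADPH oxidase that makes hydrogen peroxide and is a known TGF-β target in fibroblasts, measured 1.33, 0, 0 and 0 CPM with IL-13, 65.5, 60.6, 55.4 and 53.6 CPM with TGF-β1 and 10.8, 3.65, 12.7 and 15 CPM in unstimulated cells. With 2 counts in the 4 IL-13 libraries together and 275 in the TGF-β1 libraries, the ratio was 166 (95% exact interval 45.5 to 1380, counting error only). The fitted difference was -7.07 ± 0.83, adjusted p = 1.6e-08, and -9.44 without IL-13 replicate 1. TGF-β1 raised NOX4 (2.47 ± 0.56, adjusted p = 0.00397) and IL-13 lowered it (-4.61 ± 0.87, adjusted p = 0.00046). Every TGF-β1 library exceeded all 40 others of the series.

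IL11, a cytokine of the IL-6 family that fibroblasts secrete, stood at 132, 48.9, 113 and 83.7 CPM with TGF-β1 and at 1.33, 1.54, 0.577 and 0.888 CPM with IL-13 (difference -6.36 ± 0.61, adjusted p = 8.8e-11). Unstimulated libraries lay between at 6.86, 6.56, 4.93 and 7.51 CPM. AREG, the EGF receptor ligand amphiregulin, stood at 96.7, 69.1, 263 and 318 CPM with TGF-β1, 0, 0, 2.31 and 3.55 CPM with IL-13 and 4.41, 5.83, 39.4 and 35.5 CPM in unstimulated cells (difference -6.96 ± 0.97, adjusted p = 7.8e-07, or -7.60 without IL-13 replicate 4). DIO2, which activates thyroid hormone, was 1211, 1326, 2778 and 2996 CPM with TGF-β1 and 53.8, 67.9, 106 and 109 CPM with IL-13 (difference -4.62 ± 0.30, adjusted p = 1.4e-15). None of these 3 genes had overlapping groups.

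Several genes of this end were lowered by IL-13 and did not pass the test with TGF-β1 against unstimulated cells. STC1, a secreted glycoprotein hormone, stood at 79.7, 40.9, 100.4 and 140.3 CPM with IL-13, 1219, 1054, 4331 and 5965 CPM with TGF-β1 and 337, 557, 4259.6 and 3357 CPM in unstimulated cells. IL-13 lowered it (-4.56 ± 0.76, adjusted p = 5.9e-05), while TGF-β1 against unstimulated gave 0.56 ± 0.64, adjusted p = 0.711. TFPI2, a protease inhibitor, CXCL8, a neutrophil chemokine, PTGS2, the inducible cyclooxygenase, and the nuclear receptor NR4A2 had the same order of means. Their falls with IL-13 were -3.07, -3.75, -3.39 and -3.48 (adjusted p = 4.3e-06, 0.0113, 0.0039 and 0.0151) and the adjusted p for TGF-β1 against unstimulated was 0.0792, 0.72, 0.451 and 0.421. Direct differences were -4.24 ± 0.46, -4.40 ± 0.94, -4.27 ± 0.75 and -4.47 ± 0.86. CXCL8 varied within every group, at 39.8, 0.772, 0 and 8.88 CPM with IL-13, 103, 123, 260.4 and 569 CPM with TGF-β1 and 23, 19.7, 85.1 and 554 CPM in unstimulated cells, and its direct difference was -6.56 without IL-13 replicate 1 and -3.69 without TGF-β1 replicate 4.

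The remaining genes of the 15 were at low levels with IL-13. PLXDC2, a transmembrane protein, was raised by TGF-β1 from 1.47, 1.46, 0.704 and 0 CPM to 21.8, 28.7, 20 and 27.2 CPM and stood at 0.664, 0.772, 0 and 2.66 CPM with IL-13 (difference -4.58 ± 0.97, adjusted p = 0.00074). SCG2, secretogranin II, had 1 count with IL-13 and 111 with TGF-β1, a ratio of 134 (95% exact interval 23.5 to 5340.0). P4HA3, a prolyl hydroxylase subunit, had 3 and 104 counts, a ratio of 41.8 (13.9 to 206). Their fitted differences were -6.50 ± 1.41 and -5.27 ± 0.78, and -8.12 and -8.11 without IL-13 replicate 1, which held all of those IL-13 counts. SLC6A15, an amino acid transporter, differed by -5.06 ± 0.96, adjusted p = 0.00014. Without IL-13 replicate 4 the difference was -5.95 for SLC6A15 and -5.51 for PLXDC2.

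The sequence before the gene start was read for the 31 genes of largest difference and for POSTN, because genes at both ends are known targets of factors with short recognition sequences. RefSeq gene starts on GRCh38.p14 gave a window of 250 bases for 21 of the 31, and for POSTN. Gene positions given elsewhere are from GENCODE, whose start lies inside a window for CCL26, CXCL8, FGL2, POSTN, MEST, PGM5P4-AS1, GUCY1A1 and PLXDC2. Windows of PTGS2, NOX4, DIO2 and ALDH1A1 lie wholly within the gene by GENCODE. So do further windows of MEST and GUCY1A1 and the CLDN11 window with a match. Part or all of these windows is therefore within the gene by that annotation, and fewer or no bases before its start were searched. The letters TGACTCA on either strand, which AP-1 factors bind, and TTC followed after 4 bases of any kind by GAA, the spacing that STAT6 binds and that other STAT factors can share, were searched. Among the 21 genes, TGACTCA was found in IL11, CXCL8 and FGL2, and the spaced STAT motif in FGL2 and CLDN11. POSTN held TGACTCA at -220. The windows of IL11 and CXCL8, higher with TGF-β1, and of FGL2 and CCL26, higher with IL-13, are shown 5′ to 3′ on the gene's strand, up to the base before the start, with the matches in capitals.
IL11, chr19:55370464-55370713, minus strand, TGACTCA on the opposite strand, starting at -96: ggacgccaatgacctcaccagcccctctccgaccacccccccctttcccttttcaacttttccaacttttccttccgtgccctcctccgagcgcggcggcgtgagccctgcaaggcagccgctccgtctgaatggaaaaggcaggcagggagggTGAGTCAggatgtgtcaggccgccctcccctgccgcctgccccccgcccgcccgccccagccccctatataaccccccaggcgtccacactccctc
CXCL8, chr4:73740319-73740568, plus strand, TGACTCA at -137: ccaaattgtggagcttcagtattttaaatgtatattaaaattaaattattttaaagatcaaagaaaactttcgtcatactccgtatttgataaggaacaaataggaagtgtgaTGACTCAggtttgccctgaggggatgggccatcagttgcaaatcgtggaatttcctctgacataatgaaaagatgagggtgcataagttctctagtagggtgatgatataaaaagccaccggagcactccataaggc
FGL2, chr7:77199820-77200069, minus strand, the STAT motif at -70 and TGACTCA at -49: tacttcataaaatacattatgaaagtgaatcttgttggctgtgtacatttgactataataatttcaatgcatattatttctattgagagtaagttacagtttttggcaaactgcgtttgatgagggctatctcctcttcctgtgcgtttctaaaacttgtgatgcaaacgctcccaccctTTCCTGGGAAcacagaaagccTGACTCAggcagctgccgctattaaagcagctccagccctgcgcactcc
CCL26, chr7:75789747-75789996, minus strand, no match: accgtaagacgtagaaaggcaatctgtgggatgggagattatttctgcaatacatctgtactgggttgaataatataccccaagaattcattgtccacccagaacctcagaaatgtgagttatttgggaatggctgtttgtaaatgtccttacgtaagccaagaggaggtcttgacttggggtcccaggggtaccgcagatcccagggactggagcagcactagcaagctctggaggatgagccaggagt
Over all 35116 windows, 4.2% held TGACTCA and 5.38% held the STAT motif. Over the 11481 windows of tested genes the shares were 2.87% and 4.55%. In windows of genes called higher with TGF-β1 (309 windows of 204 genes) they were 9.06% and 5.5%, and in windows of genes called higher with IL-13 (236 of 156 genes) 3.39% and 7.2%. Windows of 1 gene can overlap, and these shares describe letters, not binding.

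Genes that the 2 cytokines moved in opposite directions were counted apart. Of 96 genes with an adjusted p under 0.05 against unstimulated cells under both cytokines, 44 moved in opposite directions and 52 in the same direction. Of the 44, 26 were lowered by IL-13 and raised by TGF-β1, 18 were the reverse, and 41 passed the size limit in the direct comparison. The lowered-and-raised genes included the stromelysins MMP3 and MMP10, the collagenase MMP1, IL11, AREG, NOX4, IL33, DIO2, the hyaluronan synthase HAS2, the proteoglycan VCAN, IGFBP3 and the chemokine CXCL6. The reverse group included FGL2, SLIT2, TLCD2, VCAM1, TGM2 and the protocadherin PCDH7. TRBC2, a T-cell receptor constant gene, was among the 10 of largest difference, at 2.66, 2.32, 8.66 and 5.33 CPM with IL-13, 91.2, 81.9, 99.8 and 66.8 CPM with TGF-β1 and 27.9, 11.7, 21.1 and 35.5 CPM in unstimulated cells, while the T-cell gene CD3E had 0 counts in these libraries. Reads of TRBC2 and its near-identical copy TRBC1 may be split uncertainly.

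**Figure D3:**
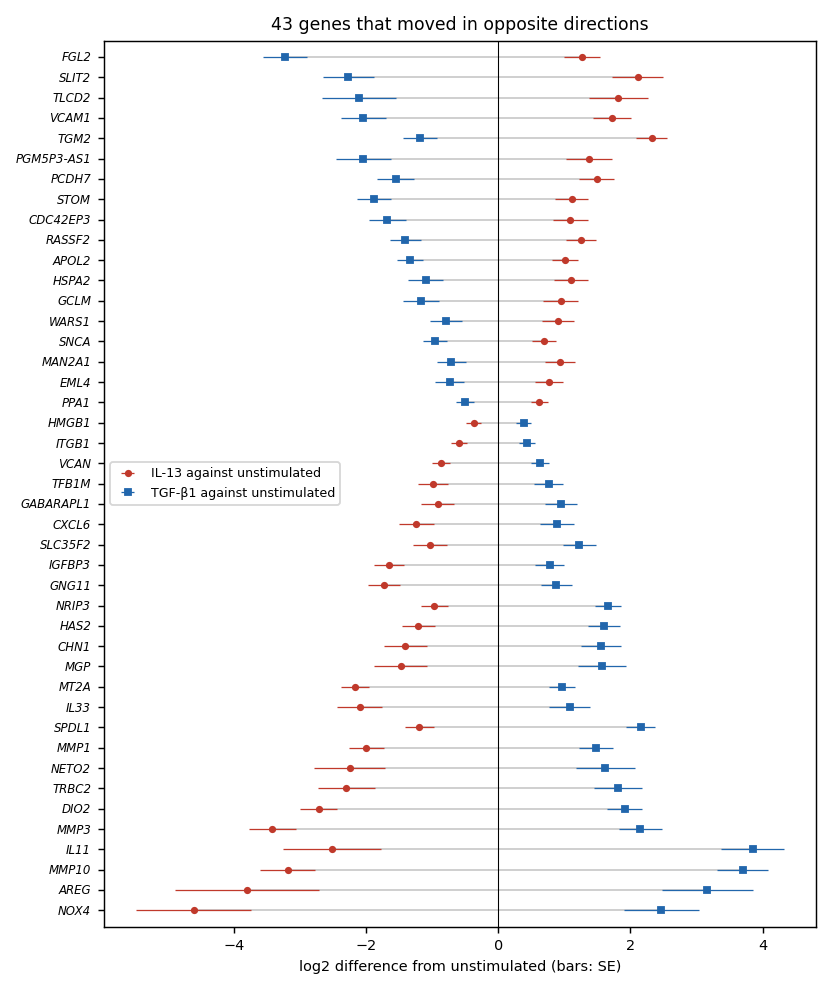
Log2 difference from unstimulated cells with IL-13 (red circles) and with TGF-β1 (blue squares), with SE, for 43 of the 44 genes that passed an adjusted p of 0.05 under both cytokines in opposite directions, ordered by the direct difference. Both series share the 4 unstimulated libraries, and 25 of the genes drawn have IL-13 on the left and TGF-β1 on the right.

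Proteases and their inhibitors were tilted to the TGF-β1 side, with 13 of 30 tested members higher with TGF-β1 and 3 higher with IL-13 (33 listed, median difference -0.91). Over all tested genes these shares were 6.05% and 6.39%. The stromelysins MMP3 and MMP10, which cleave proteoglycans and activate other metalloproteases, and the collagenase MMP1 lie in 1 stretch of chromosome 11 (102770502 to 102843609). MMP10 stood at 26.6, 6.95, 20.8 and 16.9 CPM with IL-13, 131, 94, 175 and 259.6 CPM in unstimulated cells and 1738, 1779, 2651 and 2398 CPM with TGF-β1 (difference -6.88 ± 0.46, adjusted p = 2.5e-15). MMP3 stood at 49.1, 20.8, 79.6 and 88.8 CPM with IL-13, 649, 499, 534 and 861 CPM in unstimulated cells and 2368, 2794, 3047 and 3086 CPM with TGF-β1 (difference -5.56 ± 0.39, adjusted p = 6.1e-15). MMP1 stood at 108, 74.1, 198 and 169.6 CPM with IL-13, 526, 445, 604 and 616 CPM in unstimulated cells and 1443, 1507, 1733 and 1431 CPM with TGF-β1 (difference -3.47 ± 0.28, adjusted p = 5.0e-13). For all 3 genes the 3 groups did not overlap, and unstimulated cells lay between.

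TIMP1, the secreted inhibitor of metalloproteases, stood at 1219, 967, 1649.9 and 1488 CPM with IL-13 and 3958, 3986, 3325 and 2083 CPM with TGF-β1 (difference -1.33 ± 0.21, adjusted p = 9.8e-06). TIMP3, SERPINE2, PLAUR, MMP2, MMP16, ADAM12 and ADAM19 were also higher with TGF-β1, with ADAM19 at -1.57 ± 0.17, adjusted p = 3.3e-09 and SERPINE2 at -1.08 ± 0.16, adjusted p = 2.0e-06. Aggrecan-cleaving ADAMTS proteases were on both sides. ADAMTS5 was at 67.7, 54.8, 69.3 and 70.2 CPM with IL-13 and 209.8, 215, 279 and 338 CPM with TGF-β1 (difference -1.99 ± 0.24, adjusted p = 1.9e-08), and IL-13 lowered it (-1.84, adjusted p = 5.2e-07). ADAMTS1 was at 215, 251, 135 and 159.8 CPM with IL-13 and 43.7, 58.5, 57.2 and 58.7 CPM with TGF-β1 (difference 1.803 ± 0.20, adjusted p = 2.5e-09), and TGF-β1 lowered it (-2.17, adjusted p = 3.1e-10). ADAMTS9 and the plasminogen activator PLAT were the other members higher with IL-13, ADAMTS9 from 1.56, 2.13, 0 and 0 CPM with TGF-β1 to 15.3, 21.6, 17.3 and 14.2 CPM with IL-13 (4.80 without TGF-β1 replicate 2, 4.18 with it). Without IL-13 replicate 1 the difference of ADAM12 was -3.23, from -2.53.

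**Figure D4:**
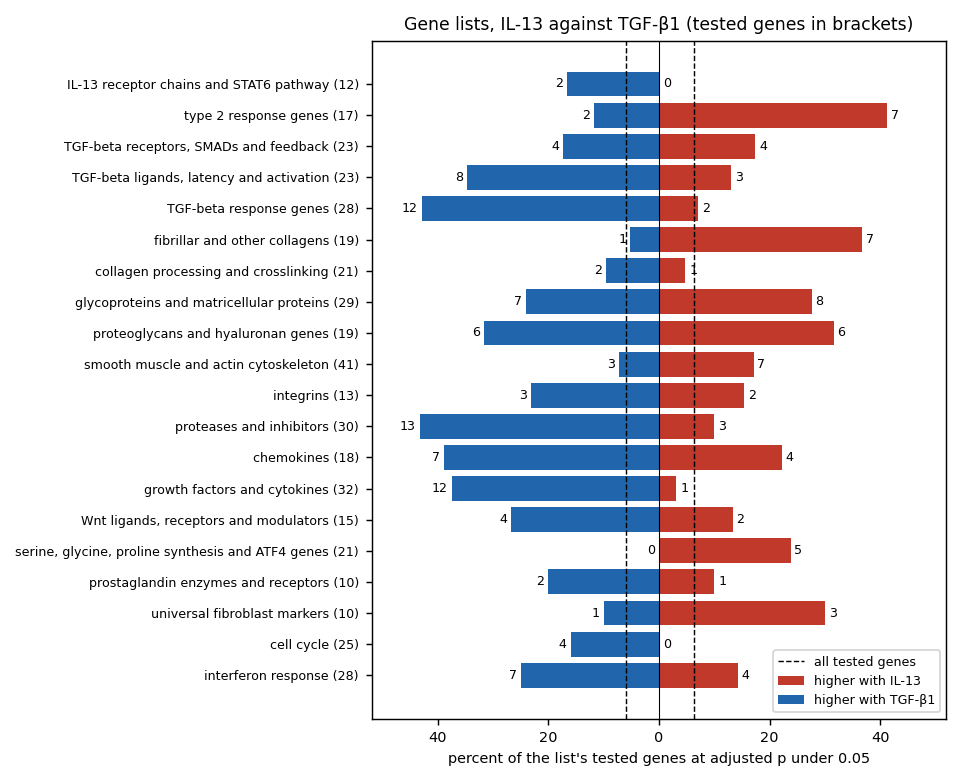
Percent of the tested genes of each of 20 lists (number tested in brackets) that were higher with IL-13 (red, right) or with TGF-β1 (blue, left) at an adjusted p under 0.05, with the number of genes at the bar ends. Dashed lines mark the shares over all 9513 tested genes, 6.39% and 6.05%. TGF-β response genes and proteases reach farthest left and type 2 response genes and collagens farthest right. The lists were chosen with earlier results of these data known.

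Collagens were on the IL-13 side: of 19 tested (29 listed), 7 were higher with IL-13 and 1, COL8A1, was higher with TGF-β1, with a median difference of 0.33. COL3A1 stood at 2829.9, 3478, 3031 and 3365 CPM with IL-13, 1642, 1456, 1423 and 1456 CPM with TGF-β1 and 2050.2, 2656, 3113 and 2553 CPM in unstimulated cells (difference 1.09 ± 0.19, adjusted p = 4.0e-05). COL14A1, a fibril-associated collagen, was at 310.0, 399.9, 304 and 285 CPM with IL-13 and 102, 115, 63.5 and 74.1 CPM with TGF-β1 (difference 1.88 ± 0.22, adjusted p = 1.1e-08). Both differences came with a fall under TGF-β1 (-0.80 ± 0.19, adjusted p = 0.0055 and -1.48 ± 0.22, adjusted p = 5.9e-06) while IL-13 against unstimulated did not pass. COL6A1, of microfibrillar collagen VI, differed the other way round, since IL-13 raised it (1.56 ± 0.28, adjusted p = 0.00017) from 64.6, 47.4, 40.1 and 32.8 CPM to 138, 145, 123 and 144 CPM and TGF-β1 libraries stood at 35.9, 74.4, 43.6 and 30.1 CPM. COL8A1, a short-chain collagen, was 92.8, 94.6, 114 and 182 CPM with TGF-β1 and 76.3, 51, 51.9 and 43.5 CPM with IL-13 (difference -1.12 ± 0.27, adjusted p = 0.00267).

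COL1A1, the α1 chain of type I collagen, was at 20587, 24451, 13214 and 15129 CPM with IL-13 and 9615, 6744, 7501 and 8473 CPM with TGF-β1, with no overlap, but unstimulated libraries spread from 5404 to 13811 CPM (difference 1.18 ± 0.36, adjusted p = 0.0223). Its adjusted p was 0.0554 without IL-13 replicate 1, 0.0883 without IL-13 replicate 2, 0.0711 without TGF-β1 replicate 2 and 0.0595 without TGF-β1 replicate 3. COL1A2, COL5A2 and COL6A3 differed by 0.69 ± 0.20, 0.82 ± 0.20 and 0.43 ± 0.14. Leaving out IL-13 replicate 1, IL-13 replicate 2 or TGF-β1 replicate 3 left 4 collagens higher with IL-13 in each case. COL1A2 no longer passed the limit on adjusted p in those 3 cases (adjusted p = 0.0566, 0.109 and 0.0665). COL6A3 no longer passed it without any 1 of the 8 libraries except IL-13 replicate 3 and TGF-β1 replicate 2 (adjusted p 0.0525 to 0.117). Nor did COL6A3 pass with no filter (0.267) or in the fit to the 8 libraries (0.115).

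Among 21 tested genes of collagen processing and crosslinking (26 listed), 1 was higher with IL-13 and 2 with TGF-β1, with a median of -0.07. These are 4.76% and 9.52% of the list, near the 6.39% and 6.05% of all tested genes. LOX, the lysyl oxidase that crosslinks collagen and elastin, stood at 879.6, 987, 537 and 657 CPM with IL-13 and 241, 227, 192 and 280.3 CPM with TGF-β1, and IL-13 raised it from 257, 398, 304 and 268 CPM (direct difference 1.70 ± 0.28, adjusted p = 1.5e-05). PLOD2, the lysyl hydroxylase of collagen telopeptides, stood at 528, 398, 453 and 767 CPM with TGF-β1 and 177, 219, 159.9 and 226 CPM with IL-13 (difference -1.46 ± 0.24, adjusted p = 2.0e-05). P4HA3, given above, was the other.

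**Figure D5:**
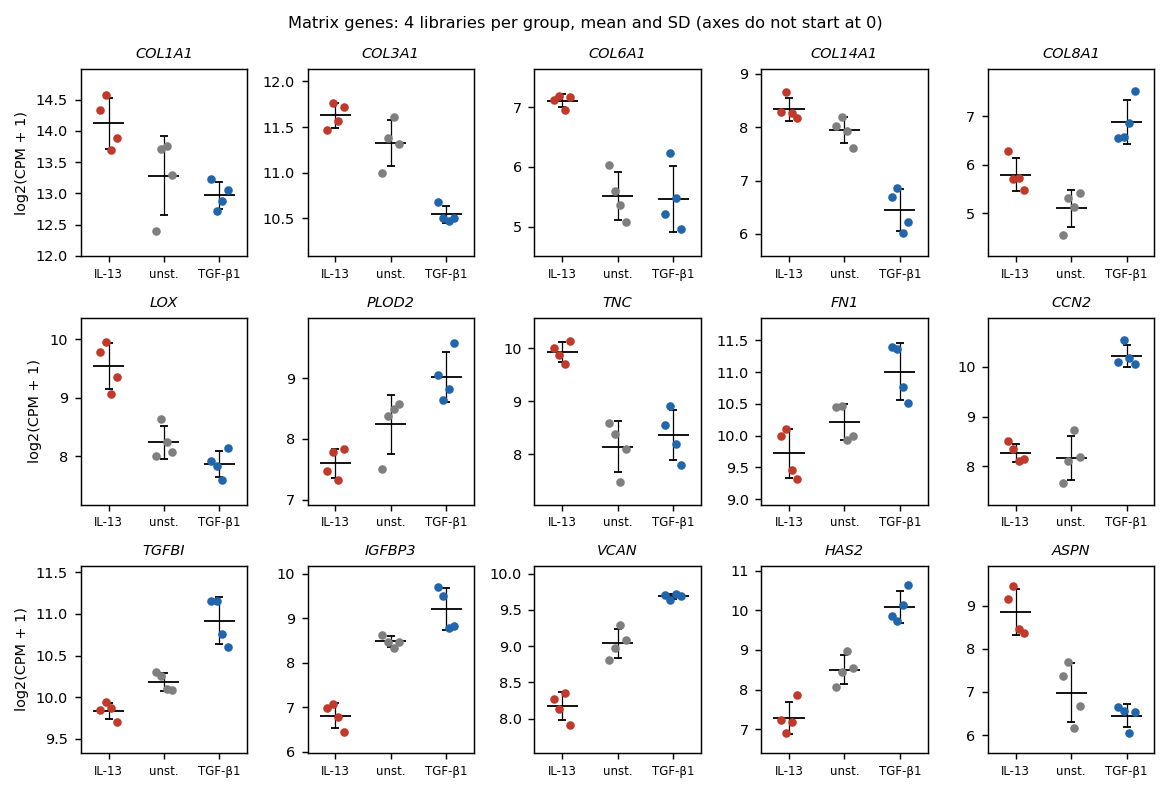
Level in each library as log2(CPM + 1) for 15 matrix genes, with the mean (line) and SD (bar) of 4 libraries for IL-13 (red), unstimulated cells (grey) and TGF-β1 (blue). Red lies above blue for COL1A1, COL3A1, COL6A1, COL14A1, LOX, TNC and ASPN and below it for COL8A1, PLOD2, FN1, CCN2, TGFBI, IGFBP3, VCAN and HAS2.

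Glycoproteins and matricellular proteins were split, with 8 of 29 tested members higher with IL-13 and 7 higher with TGF-β1 (39 listed, median -0.34). TNC, tenascin C, was raised by IL-13 (1.748 ± 0.26, adjusted p = 7.7e-06) to 1025, 939.6, 835 and 1135 CPM against 376, 481, 290.4 and 222 CPM with TGF-β1 (difference 1.53 ± 0.26, adjusted p = 2.6e-05). THBS1, THBS2, FBLN1, EFEMP1, FBN2, CCN4 and POSTN were the others higher with IL-13, with FBN2 at 3.18 ± 0.56, adjusted p = 5.1e-05 and EFEMP1 at 2.04 ± 0.29, adjusted p = 1.0e-06. CCN4 had 0 counts with TGF-β1 and was at least 1.85-fold higher with IL-13, computed against 3 counts per library. FN1, fibronectin, stood at 2694, 2633, 1739 and 1457 CPM with TGF-β1 and 1024, 1099, 702 and 638 CPM with IL-13 (difference -1.30 ± 0.20, adjusted p = 7.6e-06). ELN, MFAP2, IGFBP7, CCN2 and TGFBI were also higher with TGF-β1, and IGFBP3, which binds insulin-like growth factors, stood at 838, 724, 437 and 452 CPM with TGF-β1 and 125, 134, 108 and 85.2 CPM with IL-13 (difference -2.44 ± 0.23, adjusted p = 6.3e-11).

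Proteoglycan and hyaluronan genes divided evenly, 6 and 6 of 19 tested (32 listed, median -0.063). ASPN, a small leucine-rich proteoglycan, stood at 571, 697, 349 and 327 CPM with IL-13 and 99.8, 93.6, 65.3 and 91.7 CPM with TGF-β1 (difference 2.47 ± 0.44, adjusted p = 7.5e-05), and DCN, another of that family, differed by 0.45 ± 0.14, adjusted p = 0.0211. GPC4, CEMIP, CHSY1 and SDC4 were the others on the IL-13 side, and SDC1, XYLT1 and CEMIP2 were on the TGF-β1 side with the 3 genes that follow. VCAN, the large hyaluronan-binding proteoglycan versican, stood at 829.7, 798, 838 and 823 CPM with TGF-β1 and 309, 280.3, 327 and 241 CPM with IL-13 (difference -1.505 ± 0.14, adjusted p = 2.8e-11). HAS2, which makes hyaluronan, stood at 921, 842, 1126 and 1584 CPM with TGF-β1, 265, 348, 497 and 369.5 CPM in unstimulated cells and 149, 118, 143 and 230.0 CPM with IL-13 (difference -2.81 ± 0.26, adjusted p = 2.7e-11). TNFAIP6, which transfers proteins onto hyaluronan, was raised by both cytokines and stood higher with TGF-β1, at 437, 489, 645 and 619 CPM against 153, 166, 211 and 218 CPM (difference -1.55 ± 0.31, adjusted p = 0.00037). Only 3 members, in place of 6, were higher with IL-13 without IL-13 replicate 1 or 2 or TGF-β1 replicate 1, 2 or 3. DCN no longer passed the limit on adjusted p without IL-13 replicate 3, TGF-β1 replicate 3 or TGF-β1 replicate 4 (adjusted p = 0.0557, 0.0553 and 0.0722). Nor did DCN pass with no filter (0.0626) or in the fit to the 8 libraries (0.116).

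Of 12 tested genes among 18 of the IL-13 receptor and STAT6 pathway, 0 were higher with IL-13 and 2, the insulin receptor substrates IRS1 and IRS2, were higher with TGF-β1, against 12.4% of all tested genes in either direction. With IL-13, 1 of the 12 was higher at an unadjusted p under 0.05 in edgeR, and DESeq2 called 0. IL13RA1 stood at 12.6, 51.7, 42.7 and 50.6 CPM with IL-13 and 22.6, 10.6, 32.7 and 37.4 CPM with TGF-β1, a difference of 0.58 with a 95% interval of -0.16 to 1.33. STAT6 was under 12 CPM in each library (difference -1.14, interval -2.34 to 0.051). IL13RA2, a receptor chain that binds IL-13 without signalling through STAT6, stood at 157, 88.8, 341 and 406 CPM with IL-13 and 99.8, 113, 136 and 198 CPM with TGF-β1 (interval of the difference -0.014 to 1.72). IRS1 no longer passed the limit on adjusted p without IL-13 replicate 1 and without TGF-β1 replicate 4 (adjusted p = 0.0566 and 0.0532). The difference of IRS2 was -3.07, or -3.95 without IL-13 replicate 1.

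Of 23 tested TGF-β receptor, SMAD and feedback genes (27 listed), 4 were higher with each cytokine, against 6.39% and 6.05% of all genes (median -0.30). PMEPA1, a feedback inhibitor that TGF-β induces, stood at 42.1, 30.8, 36.3 and 26.4 CPM with TGF-β1 and 0, 9.27, 0 and 3.55 CPM with IL-13 (difference -3.45 ± 0.77, adjusted p = 0.00132, or -4.99 without IL-13 replicate 2). ID1 and ID3, inhibitors of basic helix-loop-helix factors and targets of BMP and TGF-β, were higher with TGF-β1, with ID3 at 305, 386, 269 and 124 CPM against 71, 34, 68.1 and 79 CPM (difference -2.10 ± 0.30, adjusted p = 1.3e-06). The receptor TGFBR1 was also higher with TGF-β1 (-1.15 ± 0.18, adjusted p = 8.1e-06). SMAD9 stood at 118, 151, 92.3 and 111 CPM with IL-13 and 50.7, 11.7, 33.6 and 47 CPM with TGF-β1 (difference 1.69 ± 0.29, adjusted p = 3.9e-05), and TGF-β1 lowered it (-2.03 ± 0.29, adjusted p = 5.0e-06). SMAD3, SMURF2 and TGFBR3 were the others higher with IL-13. SMAD3 had an adjusted p of 0.0121, and of 0.084 without TGF-β1 replicate 1, when 2 members were higher with IL-13. Nor did SMAD3 pass the limit on adjusted p with no filter (0.0564) or in the fit to the 8 libraries (0.108).

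Genes known to respond to TGF-β were higher with TGF-β1 in 12 of 28 tested cases and higher with IL-13 in 2, COL1A1 and LOX (30 listed, median -0.96). CCN2, a matricellular SMAD target, was 1097, 1496, 1164 and 1063 CPM with TGF-β1 and 362, 324, 276 and 281 CPM with IL-13, with unstimulated libraries at 203, 273, 424 and 289.6 CPM (difference -1.95 ± 0.21, adjusted p = 2.7e-09). TGF-β1 raised CCN2 (2.02 ± 0.21, adjusted p = 6.6e-09), whereas IL-13 against unstimulated gave 0.065 ± 0.21, adjusted p = 0.933. TGFBI differed by -1.10 ± 0.13, adjusted p = 3.8e-08. TSC22D1, CDKN2B, CTHRC1, ELN, ADAM12, ADAM19, FN1, NOX4 and IL11 were also higher with TGF-β1. Only 1 member was higher with IL-13 without IL-13 replicate 1, TGF-β1 replicate 2 or TGF-β1 replicate 3, and 4 were without TGF-β1 replicate 4.

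Ligands and genes of latency and activation followed, with 8 of 23 tested members higher with TGF-β1 and 3 higher with IL-13 (28 listed, median -0.12). INHBA, the activin A subunit, stood at 235, 186, 249 and 321 CPM with TGF-β1 and 41.8, 34, 24.2 and 45.3 CPM with IL-13 (difference -2.78 ± 0.28, adjusted p = 3.4e-10). The latent TGF-β binding proteins LTBP1 and LTBP2 differed by -1.15 ± 0.19 and -2.14 ± 0.36. BMP2, BMP6 and the antagonists FST, FSTL3 and GREM1 were also higher with TGF-β1, and the antagonist NOG higher with IL-13. ITGB8, an integrin subunit that activates latent TGF-β, was higher with IL-13, at 431, 685, 505 and 469 CPM against 31.2, 52.1, 114 and 242 CPM (difference 2.23 ± 0.38, adjusted p = 3.2e-05, or 2.99 without TGF-β1 replicate 4). THBS1, another activator, was at 3060.3, 3459, 2076 and 2207 CPM with IL-13 and 675, 838, 1129.7 and 2149.5 CPM with TGF-β1, where replicate 4 reached the IL-13 range (difference 1.17 ± 0.26, adjusted p = 0.00155).

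ACTA2, TAGLN and CNN1, contractile markers, did not pass the test between the cytokines, though TAGLN did under some alternatives. ACTA2, smooth muscle actin, stood at 1179, 1319, 937 and 776 CPM with IL-13, 1109, 1186, 496 and 363 CPM with TGF-β1 and 853, 636, 254 and 354 CPM in unstimulated cells, and the groups overlapped (difference 0.42 ± 0.37, adjusted p = 0.536, 95% interval -0.32 to 1.16). TAGLN and CNN1, actin-binding proteins of smooth muscle, differed by -0.64 ± 0.31, adjusted p = 0.192 and -1.20 ± 0.57, adjusted p = 0.183, with unadjusted 95% intervals of -1.27 to -0.016 and -2.34 to -0.049. For TAGLN the adjusted p was 0.0418 without TGF-β1 replicate 4 and 0.0193 with no filter on low counts. MYLK, the kinase of myosin light chain, was raised by IL-13 (1.17 ± 0.26, adjusted p = 0.00406) to 4017, 4390.1, 4017 and 3550.2 CPM, against 2225, 1934, 1436 and 1088 CPM with TGF-β1 (difference 1.26 ± 0.26, adjusted p = 0.00057). CSRP2, a LIM protein of the cytoskeleton, was raised by TGF-β1 to 413, 341, 381 and 282 CPM against 161, 187, 174 and 169 CPM with IL-13 (difference -1.04 ± 0.15, adjusted p = 1.2e-06).

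In all, 7 of 41 tested smooth muscle and actin genes were higher with IL-13 (MYLK, ACTB, MYH10, LPP, VCL, TPM2 and SYNPO) and 3 higher with TGF-β1 (FLNC, TAGLN2 and CSRP2), with 43 listed and a median of 0.33. These are 17.1% and 7.32% of the list, against 6.39% and 6.05% of all tested genes, so the TGF-β1 share is near that of all genes. SYNPO had 0 counts with TGF-β1 and was at least 2.34-fold higher with IL-13. The number higher with IL-13 was 4 without IL-13 replicate 1, 3 without IL-13 replicate 2 and 3 without TGF-β1 replicate 3. ACTB no longer passed the limit on adjusted p without IL-13 replicate 1 or 2 or TGF-β1 replicate 1, 2 or 3 (adjusted p 0.0529 to 0.0857).

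Among integrins, which anchor cells to matrix, 2 of 13 tested subunits were higher with IL-13 and 3 higher with TGF-β1, against 6.39% and 6.05% of all tested genes (20 listed, median 0.048). ITGB1, the common β1 chain, stood at 3599, 3484, 3528 and 4345 CPM with TGF-β1, 2677, 2782, 2795 and 2822 CPM in unstimulated cells and 1919.8, 2168, 1648 and 1608 CPM with IL-13, with no overlap among the 3 groups (difference -1.03 ± 0.12, adjusted p = 2.4e-08). ITGA2, a collagen receptor chain, stood at 110.0, 131, 134 and 124 CPM with TGF-β1 and 30.5, 23.2, 13.3 and 31.1 CPM with IL-13 (difference -2.36 ± 0.31, adjusted p = 2.8e-07). ITGA6 was also higher with TGF-β1, and ITGA4 and ITGB8 higher with IL-13. Of 10 tested universal fibroblast markers (15 listed, median 0.071), THY1, GSN and DCN were higher with IL-13 and DPT higher with TGF-β1. DPT no longer passed the limit on adjusted p without IL-13 replicate 1, 2 or 3 or TGF-β1 replicate 2 or 3. THY1 stood at 152, 198, 81.4 and 96.8 CPM with IL-13 and 59.3, 64.9, 36.3 and 16.9 CPM with TGF-β1 (difference 1.59 ± 0.34, adjusted p = 0.00093).

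Chemokines were on both sides, with 4 of 18 tested members higher with IL-13 and 7 higher with TGF-β1, against 6.39% and 6.05% of all tested genes (22 listed, median -1.83). Those higher with IL-13 were the CC chemokines CCL26, CCL11 and CCL2 and the stromal CXCL12. CXCL12, the ligand of CXCR4, stood at 94.3, 66.4, 81.9 and 76.4 CPM with IL-13 and 7.8, 11.7, 5.44 and 13.9 CPM with TGF-β1, which lowered it (difference 3.02 ± 0.44, adjusted p = 2.2e-06, and -1.86 ± 0.45, adjusted p = 0.00692 for TGF-β1 against unstimulated). CCL2, a monocyte chemokine, stood at 382, 364, 329.5 and 419 CPM with IL-13 and 68.6, 85.1, 144 and 222 CPM with TGF-β1 (difference 1.51 ± 0.26, adjusted p = 2.6e-05), and its unstimulated libraries spanned 204, 248, 331 and 439 CPM. Those higher with TGF-β1 were the neutrophil chemokines CXCL1, CXCL2, CXCL3, CXCL6 and CXCL8 and the interferon-induced CXCL10 and CXCL11, whose groups overlapped. Against unstimulated cells, at an adjusted p under 0.05, IL-13 raised 2 and lowered 5 of the 18, and TGF-β1 raised 3 and lowered 2. CXCL6 stood at 189, 191, 315 and 444 CPM with TGF-β1 and 71.7, 42.5, 68.7 and 77.3 CPM with IL-13 (difference -2.13 ± 0.27, adjusted p = 8.5e-08). CXCL2 had 0 counts with IL-13 and was at least 2.98-fold higher with TGF-β1. Reads of CXCL1, CXCL2 and CXCL3 may be split uncertainly, as the 3 genes are close copies.

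Growth factors and cytokines were on the TGF-β1 side in 12 of 32 tested cases and on the IL-13 side in 1, FGF5 (38 listed, median -0.98). Over all tested genes these shares were 6.05% and 6.39%. PTHLH, parathyroid hormone-related protein, was raised by TGF-β1 to 255, 183, 143 and 114 CPM against 30.5, 39.4, 11 and 15.1 CPM with IL-13 (difference -2.86 ± 0.37, adjusted p = 1.2e-07). AREG, IL11, LIF, NRG1, EDN1, VEGFC, PDGFC, BDNF, IGF1 and ANGPT1 were among the others. FGF5 stood at 86.3, 84.9, 68.7 and 64.8 CPM with IL-13 and 17.2, 9.57, 38.1 and 18.3 CPM with TGF-β1 (difference 1.86 ± 0.34, adjusted p = 9.7e-05), and without IL-13 replicate 4 the number on that side was 2. Of 10 tested prostaglandin genes (19 listed, median 0.26), PTGIS was higher with IL-13 and PTGS2 and PLA2G4A, which releases arachidonic acid, higher with TGF-β1. Only 1 of the 10 was higher with TGF-β1 without IL-13 replicate 2, IL-13 replicate 4 or TGF-β1 replicate 3.

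Of 15 tested Wnt genes (34 listed, median -0.47), 2 were higher with IL-13 and 4 with TGF-β1, against 6.39% and 6.05% of all tested genes. The ligand WNT2B stood at 45.8, 40.9, 34 and 60.4 CPM with IL-13, 49.5, 46.7, 33.1 and 44.4 CPM in unstimulated cells and 4.68, 10.6, 9.98 and 5.14 CPM with TGF-β1, which lowered it (direct difference 2.59 ± 0.40, adjusted p = 5.0e-06). The antagonist SFRP1 was also lowered by TGF-β1 (-1.46 ± 0.29, adjusted p = 0.00085) and higher with IL-13 (1.33 ± 0.29, adjusted p = 0.00104). The antagonist DKK1 stood at 221, 181, 171 and 178 CPM with TGF-β1 and 64.4, 40.1, 18.5 and 30.2 CPM with IL-13, which lowered it (-1.73 ± 0.26, adjusted p = 7.7e-06; direct difference -2.29 ± 0.26, adjusted p = 5.4e-09). WNT5A, RSPO3 and FZD8 were higher with TGF-β1. WNT5A no longer passed the limit on adjusted p without IL-13 replicate 1, IL-13 replicate 3 or TGF-β1 replicate 4 (adjusted p = 0.0615, 0.0829 and 0.195).

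Interferon response genes were divided by kind and by library. Of 28 tested (29 listed, median -0.53), 7 were higher with TGF-β1 and 4 higher with IL-13. IFIT3, an antiviral gene, stood at 5.46, 77.6, 111 and 136 CPM in TGF-β1 replicates 1 to 4 and at 12.6, 17, 4.62 and 13.3 CPM with IL-13 (difference -2.83 ± 0.50, adjusted p = 4.9e-05). CXCL10 showed the same division, at 3.12, 74.4, 91.6 and 165 CPM in TGF-β1 replicates 1 to 4 and 9.29, 0, 1.15 and 0.888 CPM with IL-13 (difference -4.77 ± 0.74, adjusted p = 6.8e-06). TGF-β1 replicate 1 lay within or below the IL-13 range while replicates 2, 3 and 4 lay above it, and the same held for IFIT2, IFI27, OAS1, RSAD2 and CXCL11. IFI44L was the exception, with 0 counts in every IL-13 library and some in every TGF-β1 library, at least 8.81-fold higher. Without TGF-β1 replicate 1, 8 members were higher with TGF-β1, and in a fit to the 8 libraries alone 1 was. Without IL-13 replicate 1 the difference was -6.71 for CXCL10. It was -4.18 without TGF-β1 replicate 4. Those higher with IL-13 included the guanylate-binding proteins GBP1 and GBP2 and the immunoproteasome subunit PSMB9. GBP1 stood at 467, 448, 459 and 408 CPM with IL-13 and 285, 286, 234 and 307 CPM with TGF-β1 (difference 0.68 ± 0.16, adjusted p = 0.00267).

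Amino acid synthesis and stress genes under the factor ATF4 were higher with IL-13 in 5 of 21 tested cases and higher with TGF-β1 in 0 (27 listed, median 0.89). On the TGF-β1 side, 0 of the 21 had an unadjusted p under 0.05 in edgeR, and DESeq2 called 0. DDIT3, the stress factor CHOP, stood at 217, 195, 235 and 207 CPM with IL-13, 122, 132, 122 and 107 CPM in unstimulated cells and 81.9, 99.96, 80.8 and 54.3 CPM with TGF-β1 (difference 1.44 ± 0.20, adjusted p = 7.8e-07). MTHFD2, of mitochondrial folate metabolism, and PSAT1, of serine synthesis, differed by 1.29 ± 0.21, adjusted p = 1.8e-05 and 1.41 ± 0.30, adjusted p = 0.00085, and ASNS and SLC7A11 were the others.

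Other genes were moved the same way by both cytokines. Of the 52 genes that changed in the same direction against unstimulated cells, 33 fell and 19 rose, and 10 of the 52 still differed between the cytokines at an adjusted p under 0.05. The 33 are 0.347% of all tested genes, and 6 of them (BIRC5, TOP2A, RRM2, CCNB1, CCNE2 and CDK1) are among the 25 tested members of the cell cycle list, or 24% of these. TOP2A, a topoisomerase of dividing cells, stood at 33.2, 44, 25.4 and 37.3 CPM with IL-13, 80.3, 53.2, 46.3 and 74.9 CPM with TGF-β1 and 194, 200.5, 144 and 179 CPM in unstimulated cells, and fell with both (-2.37 ± 0.31, adjusted p = 6.3e-07 and -1.49 ± 0.30, adjusted p = 0.00085). Its direct difference was -0.88 ± 0.31, adjusted p = 0.0558, with an interval of -1.51 to -0.25. It passed with no filter, with the replicate block, with DESeq2, in the fit to the 8 libraries and without TGF-β1 replicate 3 (adjusted p = 0.00985, 0.0227, 0.0365, 0.0413 and 0.0436). The whole cell cycle list had 25 tested members of 31, of which 0 were higher with IL-13 and 4 (CDK1, PCNA, RRM2 and the inhibitor CDKN2B) higher with TGF-β1, with a median of -0.81. CDK1 no longer passed the limit on adjusted p without IL-13 replicate 2 or 3 or TGF-β1 replicate 1 or 4 (adjusted p 0.0605 to 0.091) and in the fit to the 8 libraries (0.0609). On the IL-13 side, 0 of the 25 had an unadjusted p under 0.05 in edgeR, and DESeq2 called 0.

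Outside the cell cycle, HGF, a growth factor for epithelium, fell from 407, 468, 780.3 and 648 CPM to 157, 97.3, 212 and 228 CPM with IL-13 and 172, 245, 265 and 270.1 CPM with TGF-β1, and the groups of the 2 cytokines overlapped (difference -0.45 ± 0.27, adjusted p = 0.322, interval -1.005 to 0.099). STEAP1, a metalloreductase, rose from 13.7, 15.3, 19.7 and 38.9 CPM to 41.8, 67.2, 72.1 and 101 CPM and 64.7, 48.9, 68.1 and 69.7 CPM (difference 0.16 ± 0.28, adjusted p = 0.801, interval -0.41 to 0.73). ANOS1, a secreted matrix protein, rose by 1.68 ± 0.44 and 1.49 ± 0.44, with an interval of the direct difference of -0.65 to 1.03. POSTN and TNFAIP6, given above, also rose with both, with POSTN higher under IL-13 and TNFAIP6 higher under TGF-β1.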

How the data were processed

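RNA from 8 libraries of cytokine-treated Ccd-18Co fibroblasts and 4 unstimulated ones was analysed within the series of 44 libraries. Per the labels, 25000 cells were seeded per well. The authors deposited 1 table of estimated counts per gene symbol, quantified with kallisto 0.48.0 after FastQC 0.11.9 and MultiQC 1.14 on hg38, per the submitters' processing notes. The transcript release and strand setting are not given in the sources used here. Of the values 5.73% were not whole, and all were rounded. Such estimates divide reads of near-identical genes by model. Library totals ran from 825001 to 1786182 in the IL-13 and TGF-β1 groups, so 3 counts correspond to a mean of 2.18 CPM with IL-13 and 2.61 CPM with TGF-β1. Low genes are therefore measured with wide error, and intervals and limits from counts cover counting error only.

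All 44 libraries were fitted with edgeR 4.0.16 in R 4.3.3 (TMM normalisation, filterByExpr by group, quasi-likelihood F-test), which tested 9513 of 40663 symbols, with 16928 at 0 in every library. Adjusted p is by Benjamini-Hochberg over all 9513. Called genes had a log2 difference beyond 1.5 in either direction with an adjusted p below 0.05, and lists were counted at adjusted p under 0.05 by direction. Standard errors were the log2 difference divided by the square root of F. CPM used normalised library sizes. No pair of replicates held identical or near-identical counts. The 15 genes named on each side had the largest differences among called genes with no overlap between groups and a mean of at least 10 CPM over the 8 libraries, and the 10 with opposite changes were taken by size under the same mean. Members of 20 gene lists were described in addition. The genes and lists were chosen with earlier results of these data known. The script was tested on simulated data. Gene positions are from GENCODE 44 (GRCh38), where 99.8% of tested symbols matched, and promoter windows from RefSeq (GRCh38.p14). The alternatives tried were DESeq2 1.42.0 size factors, its Wald test, other filters and thresholds, fits to 8 libraries, a replicate block and leaving out each library. A few members of the lists are counted but not reported here by name.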

Additional observations from a re-analysis of the deposited data

Results flagged for a closer look

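For the described genes, 228 groups of 4 libraries in all, the distance of the highest or lowest library from its nearest neighbour was divided by the range of the group. It exceeded Dixon's limit for 4 values in 14 groups (6.14%), and chance alone gives about 1 in 20.

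With IL-13, the value was 1.0 for NOX4, SCG2, P4HA3 and CXCL11, where replicate 1 held the only counts of the group (5.97, 0, 0 and 0 CPM for CXCL11). IL-13 replicate 1 also stood apart for CXCL10 (0.876, at 9.29, 0, 1.15 and 0.888 CPM), PTGS2 (0.832, at 16.6, 6.95, 5.19 and 7.1 CPM) and IRS2 (0.852, at 5.31, 1.54, 1.15 and 0.888 CPM). ADAMTS5 gave 0.841, with replicate 2 the lowest of 67.7, 54.8, 69.3 and 70.2 CPM. With TGF-β1, ELOVL2 gave 1.0, with counts in replicate 4 alone, and PGM5P4-AS1 0.93, with replicate 3 the highest of 0.78, 1.06, 5.44 and 0.734 CPM. COL3A1 (0.848), COL6A3 (0.92, at 421, 513, 416 and 413 CPM), ADAMTS1 (0.897) and ITGB1 (0.867) were each set apart by 1 TGF-β1 library. What set these libraries apart was not tested.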

How the results depend on the processing

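Of 459 genes called between IL-13 and TGF-β1, the number was 458 with DESeq2 size factors, 511 with no filter, 459 with at least 10 counts in 4 libraries, 521 with the DESeq2 Wald test and 328 in a fit to the 8 libraries alone. An absolute log2 limit of 1 gave 789 and no limit 1184. Against unstimulated cells those 2 limits gave 242 and 374 in place of 140 for IL-13, and 320 and 541 in place of 162 for TGF-β1. A fit to the 8 libraries alone gave 107 for TGF-β1, with fewer genes tested (7446). Leaving out 1 library gave 384 to 529 genes in the direct comparison, 101 to 125 for IL-13 and 114 to 219 for TGF-β1. With the replicate block the direct count was 465, of which 441 were among the 459, and the counts against unstimulated were 144 and 173. After the group means were removed, same-numbered IL-13 and TGF-β1 libraries correlated at -0.093 to -0.00082. For IL-13 and unstimulated libraries the range was -0.090 to 0.069, and for TGF-β1 and unstimulated libraries -0.040 to 0.179. Counting error of low genes weakens such correlations, so they cannot tell whether the numbers pair the samples. With IL-13, with TGF-β1 and in unstimulated cells alike, STC1 and SLC6A15 stood higher in replicates 3 and 4 than in 1 and 2. FN1 and ACTA2 stood lower in replicates 3 and 4 in each of these groups, and other genes, such as VCAN, did not divide this way. What set these replicates apart was not tested.

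Over 1579 values of 113 genes, 1526 kept their direction and side of the threshold, 44 no longer passed, 7 newly passed and 2 changed sign. The latter were STEAP1, at -0.056 without IL-13 replicate 4 (-0.056 to 0.34 over the libraries left out), and ANOS1, at -0.014 without TGF-β1 replicate 3 (-0.014 to 0.33), and neither passed the test. Of 560 list counts, 517 stayed within 1.5 times. Depth limits genes under about 3 counts per library. The causes of these changes were not tested.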

Other observations

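Of the 44 genes that both cytokines changed in opposite directions, MGP, MT2A and GCLM are in none of the lists and are named here after their values were seen. MGP, matrix Gla protein, which inhibits calcification, stood at 6.64, 8.49, 7.5 and 14.2 CPM with IL-13, 15.2, 15.3, 33.8 and 37.6 CPM in unstimulated cells and 88.9, 74.4, 75.3 and 62.4 CPM with TGF-β1 (difference -3.04 ± 0.40, adjusted p = 2.7e-07, edgeR). The metallothionein MT2A stood at 43.1, 32.4, 56 and 80.8 CPM with IL-13, 253, 168, 279 and 251 CPM in unstimulated cells and 469, 519, 504 and 365 CPM with TGF-β1 (difference -3.13 ± 0.22, adjusted p = 6.1e-15). MGP and MT2A were lowered by IL-13 and raised by TGF-β1. GCLM, a subunit of the enzyme that starts glutathione synthesis, had the reverse order, at 264, 339, 159.9 and 229 CPM with IL-13, 106, 157, 148 and 104 CPM in unstimulated cells and 39, 47.9, 49.9 and 91 CPM with TGF-β1 (difference 2.11 ± 0.28, adjusted p = 2.2e-07). Reads of MT2A may be shared with other metallothioneins.

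COL5A1, a chain of type V collagen, varied widely within the TGF-β1 and the unstimulated group and was low in every IL-13 library. It stood at 1.33, 0.772, 0.577 and 0 CPM with IL-13, 2.34, 73.4, 0.907 and 0 CPM with TGF-β1 and 76.9, 33.5, 54.9 and 0.683 CPM in unstimulated cells (difference -4.56 ± 1.82, adjusted p = 0.0947).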
